A study of Mus musculus with 2 samples.

Results

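The genes of glycolysis, glycogen turnover and the creatine kinases were compared between differentiated C2C12 cells depleted of Lrrfip1 by a hairpin (shLrrfip1a) and control cells (labelled shLCUI). C2C12 is an established line of mouse myoblasts, which fuse into myotubes in low serum, and both groups had been kept for 5 days in medium with 2% horse serum. Each group was 1 Affymetrix array, so no difference has a replicate check, no p-value or SD between replicates exists, and every statement below describes these 2 RNA samples. The labels do not say whether a pool of cells or a clone carried each hairpin. The members were the probe sets whose single gene symbol in the platform annotation is 1 of 50 listed genes. A probe set is a group of short probes against the same stretch of a transcript. The rule found 88 of 45101 probe sets, for 46 of the 50 genes. Gpi1, Pfkfb1, Eno1 and Mpc2 had no probe set with their symbol alone and are not analysed here.

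Glycolysis splits glucose into pyruvate in the cytosol. Its first steps spend ATP to make sugar phosphates, and its later steps return ATP and end in pyruvate, which lactate dehydrogenase turns into lactate or the pyruvate dehydrogenase complex feeds into mitochondria. Skeletal muscle stores glucose as glycogen, releases it through glycogen phosphorylase, and buffers ATP through phosphocreatine and the creatine kinases. Many of these steps have a form that accumulates during muscle differentiation (Pfkm, Pgam2, Eno3, Pygm, Ckm) beside forms typical of proliferating cells or other tissues (Pfkp, Pgam1, Eno1, Pygb, Ckb).

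Values are intensities as deposited by the authors, on a linear scale. A difference is log2(intensity + 16) in shLrrfip1a minus the same in the control, a scale that compresses changes of dim genes. A gene was read on its brightest probe set by the mean of the 2 arrays. It was counted when this mean exceeded 52.8, the median over the whole array. Of 45 member genes with an ordinary probe set, 38 passed this level filter and 7 did not (Pdk2, Pygl, Phkg1, Fbp2, Ckmt2, Ckmt1 and Slc2a4). Gapdh had a single-symbol reading only on 3 control probe sets of the array and is given apart. Intensities of different probe sets depend on their probes and were not compared between genes.

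The targeted gene was lower on all 3 of its probe sets (375 against 531, 292 against 469 and 108 against 160), at 62.2% to 70.6% of the control. All 8 fixed markers of differentiated muscle (Myog, Acta1, Myh3, Myl1, Tnnt3, Tnni1, Des and Atp2a1) lay above the filter on both arrays, with differences from -0.38 to 0.04 and summed intensities of 16329 against 18073. As deposited 6 of them were lower and 2 higher, with Myog (-0.38), Tnni1 (-0.31) and Des (-0.23) the lowest. The 3 proliferation markers with a probe set (Mki67, Top2a and Cdk1) were also above it and differed by -0.32 to -0.17 (summed, 2518 against 2995). Of 6 fibroblast markers 3 were higher and 3 lower (summed, 12853 against 9900). Dcn, at 3497 against 260, differed by more than these sums did, so the higher sum rests on Dcn. Col1a1 (-0.42) and Pdgfra (-0.35) were the lowest. Of 4 adipocyte markers with a probe set only Cebpa passed the filter, and Adipoq read 7.51 against 7.42. The part of these cell types in the results below was not tested. In bulk RNA, fewer cells of a type and less RNA per cell cannot be told apart. The spike-in controls are bacterial and phage sequences added to the samples during preparation, and the steps at which they were added were not separated here. They read lower in shLrrfip1a on 39 of their 45 probe sets (median -0.18). Scaling the arrays to them moved the median of all genes from 0.00 to 0.17, so 4 of the members above the filter that were slightly lower (Eno3, Ugp2, Pfkfb3 and Slc16a1) change sign under that scaling. Of the 8 muscle markers 3 were lower under it, against 23.3% of all genes.

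Of the 38 members above the filter, 22 were lower and 16 higher in shLrrfip1a, with a median difference of -0.12. Of all 11438 genes, 49.3% were lower and 50.7% higher, with a median of 0.00. Under spike-in scaling the member median turned to 0.058, still below the 0.17 of all genes, and 18 of 38 members were lower, against 23.3% of all genes. No member reached 2-fold, the size passed by 1.38% of all genes. Of the 38, 4 were at least 1.5-fold different (10.5% of the members, against 4.9% of all genes). They were 3 lower members, Pfkp, Eno2 and Hk2 (7.89%, against 2.49% of all genes), and 1 higher member, Phkb (against 2.4% of all genes). Under spike-in scaling the split was 2 and 2, because Hk2 came to -0.51 and Pfkm to 0.62, while the share of all genes past 1.5-fold rose to 7.26%. At a smaller size of 0.32 on the log2 scale, 6 members were lower and 3 higher, against 9.72% and 9.7% of all genes. Just inside the 1.5-fold line (0.58 on the log2 scale) was Phkb at 0.62, and just outside were Gys1 at -0.57 and Pfkm at 0.44.

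**Figure D1:**
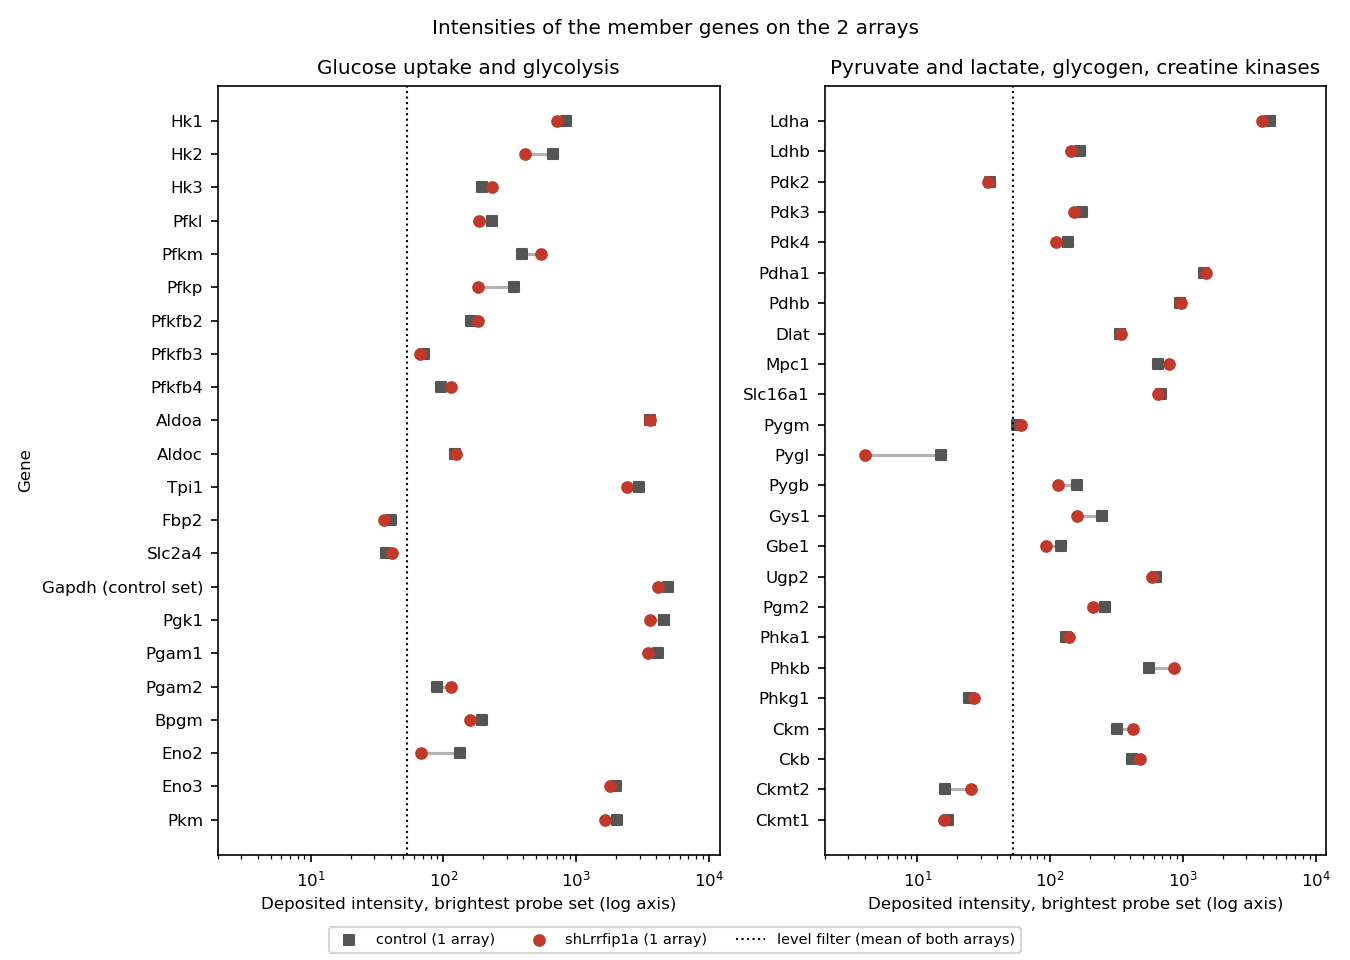
Deposited intensity of each member on its brightest probe set, on a log axis, for the control array (grey squares) and the shLrrfip1a array (red circles), with the level filter dotted. The widest gaps above the filter are those of Pfkp (182 against 340) and Eno2 (68.2 against 134), and most pairs of points lie close together. Positions along the axis are not comparable between genes.

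The sequences upstream of 8 members, picked after their differences were seen, are shown to set lower members beside higher muscle forms. Ldha, Pgk1, Pgam1, Hk2 and Pfkp were lower in shLrrfip1a, while Pgam2, Ckm and Pygm, the muscle forms of phosphoglycerate mutase, cytosolic creatine kinase and glycogen phosphorylase, were higher (Pygm by only 0.08). Each is the 250 bases before a RefSeq transcription start in GRCm38.p6, read 5′ to 3′ on the strand of the gene. Capitals mark ACGTG on either strand, the core bound by hypoxia-inducible factors and by other basic helix-loop-helix factors, and CANNTG, the E-box bound by myogenic and other basic helix-loop-helix factors. The 2 motifs overlap in CACGTG.
Ldha, chr7:46845554-46845803, plus strand: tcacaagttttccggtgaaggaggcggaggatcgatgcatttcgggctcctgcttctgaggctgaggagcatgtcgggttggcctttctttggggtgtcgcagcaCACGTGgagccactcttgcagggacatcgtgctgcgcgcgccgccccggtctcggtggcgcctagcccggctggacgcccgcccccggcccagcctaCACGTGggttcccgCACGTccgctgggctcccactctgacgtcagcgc
Pgk1, chrX:106186850-106187099, plus strand: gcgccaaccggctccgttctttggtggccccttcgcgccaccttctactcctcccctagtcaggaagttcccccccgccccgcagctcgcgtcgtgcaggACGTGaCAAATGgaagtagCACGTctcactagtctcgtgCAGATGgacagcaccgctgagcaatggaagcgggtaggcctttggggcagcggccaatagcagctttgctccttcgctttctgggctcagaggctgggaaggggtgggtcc
Pgam1, chr19:41911621-41911870, plus strand: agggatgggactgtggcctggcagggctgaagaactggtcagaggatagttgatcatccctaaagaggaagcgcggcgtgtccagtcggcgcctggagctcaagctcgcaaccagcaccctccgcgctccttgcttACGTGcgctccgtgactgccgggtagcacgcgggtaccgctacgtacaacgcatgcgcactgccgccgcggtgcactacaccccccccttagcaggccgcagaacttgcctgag
Hk2, chr6:82774455-82774704, minus strand: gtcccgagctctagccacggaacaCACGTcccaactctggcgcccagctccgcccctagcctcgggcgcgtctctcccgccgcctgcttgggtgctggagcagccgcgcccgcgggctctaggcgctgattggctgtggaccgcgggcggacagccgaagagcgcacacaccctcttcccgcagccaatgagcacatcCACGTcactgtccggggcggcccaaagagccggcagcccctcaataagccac
Pfkp, chr13:6648772-6649021, minus strand: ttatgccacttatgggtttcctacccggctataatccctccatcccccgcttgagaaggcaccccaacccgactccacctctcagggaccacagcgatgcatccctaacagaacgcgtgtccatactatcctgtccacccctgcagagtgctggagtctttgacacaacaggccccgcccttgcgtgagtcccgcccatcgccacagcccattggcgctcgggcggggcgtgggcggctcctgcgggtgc
Pgam2, chr11:5803797-5804046, minus strand: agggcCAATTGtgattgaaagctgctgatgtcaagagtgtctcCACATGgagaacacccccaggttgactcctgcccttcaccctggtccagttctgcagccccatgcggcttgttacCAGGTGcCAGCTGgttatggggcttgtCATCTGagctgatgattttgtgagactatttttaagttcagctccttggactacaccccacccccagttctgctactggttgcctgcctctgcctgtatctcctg
Ckm, chr7:19410844-19411093, plus strand: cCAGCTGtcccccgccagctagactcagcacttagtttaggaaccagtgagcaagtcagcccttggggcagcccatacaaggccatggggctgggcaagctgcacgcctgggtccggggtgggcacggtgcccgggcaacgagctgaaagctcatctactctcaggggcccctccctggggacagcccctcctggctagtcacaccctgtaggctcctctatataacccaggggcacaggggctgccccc
Pygm, chr19:6384158-6384407, plus strand: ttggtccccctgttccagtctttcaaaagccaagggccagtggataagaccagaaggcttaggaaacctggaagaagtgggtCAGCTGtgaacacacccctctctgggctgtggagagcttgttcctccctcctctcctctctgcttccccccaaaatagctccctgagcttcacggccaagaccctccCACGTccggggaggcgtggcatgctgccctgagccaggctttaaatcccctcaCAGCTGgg
Ldha has 2 RefSeq windows, and the one with more ACGTG stretches is shown; the others have 1 each. ACGTG did not follow the direction of the difference in every gene. Among lower genes there were 3 stretches in Ldha, 2 in Pgk1, 1 in Pgam1 and 2 in Hk2, but 0 in Pfkp, the lowest member, and likewise 0 in the windows of Eno2, Tpi1, Bpgm and Gapdh. Among higher genes there were 0 in Pgam2 and Ckm, but 1 in Pygm and 1 in each of 2 of the 4 windows of Pfkm. Pgam2 holds 5 CANNTG stretches, of which 1 reads CAGCTG, Ckm holds 1 and Pygm 2, which all read CAGCTG, and Pfkp holds 0. CAGCTG did not follow the direction in every gene either. It was absent from all 4 windows of Pfkm and from that of Phkb, both higher, and present in that of Gys1, which was lower.

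RefSeq windows were found for 49 of the 50 listed genes, 70 windows in all. ACGTG stood in 24 of them (34.3%), against 16.6% of all 32851 windows of the same length. The member windows were richer in G and C (median 60.0% against 52.4%). Of 9331 windows with a GC share between the member quartiles, 53.4% and 64.6%, 20.3% held ACGTG. It stood in 12 of 27 windows of the members that were lower in shLrrfip1a and in 9 of 25 windows of those that were higher. CAGCTG stood in 7 of 14 windows of the muscle isoforms and in 0 of 15 windows of the other isoforms, against 13.0% of all windows, and CANNTG in 45 of 70 member windows, against 66.2%. By direction, CAGCTG stood in 3 of 27 windows of the lower members and in 5 of 25 windows of the higher members. A match describes letters in a short window and does not show that a factor binds there.

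The upper part of glycolysis differed in both directions, with 6 of 12 measured genes lower and 6 higher (median -0.02). Under spike-in scaling its median was 0.13, against 0.17 of all genes. The hexokinases trap glucose in the cell as glucose 6-phosphate. Hk2, the hexokinase typical of insulin-sensitive tissue such as muscle, read 408 against 664 (-0.68), and 1.91% of all genes had a lower difference. Hk1, the form found in most tissues, read 712 against 842 (-0.24), but its other probe set, just below the filter, was level (51.9 against 52.7, -0.016). Hk3, a form known from white blood cells, read 231 against 194 (0.23) on a probe set that can bind other transcripts, and its other probe set was dim (34.8 against 30.1). Hk2 was thus the 1 hexokinase gene past 1.5-fold.

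Phosphofructokinase commits sugar to glycolysis, and its 3 forms did not move together. The muscle form Pfkm read 540 against 394 (0.44). The platelet form Pfkp read 182 against 340 (-0.85), the lowest difference of any member above the filter, with 1.15% of all genes lower still. Its next probe set, close to the filter, read 51.1 against 76.3 (-0.46). The liver form Pfkl read 184 against 230 (-0.30) on its brightest probe set and differed by only -0.06 and -0.03 on the other 2. So the muscle form was higher, the platelet form was lower on both measured probe sets, and the liver form was close to level on 2 of 3.

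The bifunctional Pfkfb enzymes make and remove fructose 2,6-bisphosphate, an activator of phosphofructokinase. None measured reached 0.32 on the log2 scale as deposited. Pfkfb2 read 181 against 161 (0.16) and Pfkfb4 read 115 against 96.3 (0.22). Pfkfb3, the inducible form of many proliferating cells, read 67.1 against 71.3 (-0.07). Under spike-in scaling Pfkfb2 came to 0.33, Pfkfb4 to 0.38 and Pfkfb3 to 0.08, against the all-gene median of 0.17. Aldolase A (Aldoa), the form of muscle and most other tissues, read 3620 against 3568 (0.02) on its brightest probe set, but its other 4 probe sets were lower, by -0.29 to -0.11, and all 5 can bind related transcripts. The brain-type Aldoc was level at 123 against 121 (0.02). Tpi1, which interconverts the triose phosphates, was lower on all 3 probe sets, at 2425 against 2987 (-0.30), 2220 against 3010 (-0.44) and 971 against 1482 (-0.60). Fbp2, the muscle fructose bisphosphatase that runs the phosphofructokinase step backwards, was dim on both arrays (35.6 against 40.4). The insulin-regulated glucose transporter gene Slc2a4 was also dim (40.7 against 37.1).

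**Figure D2:**
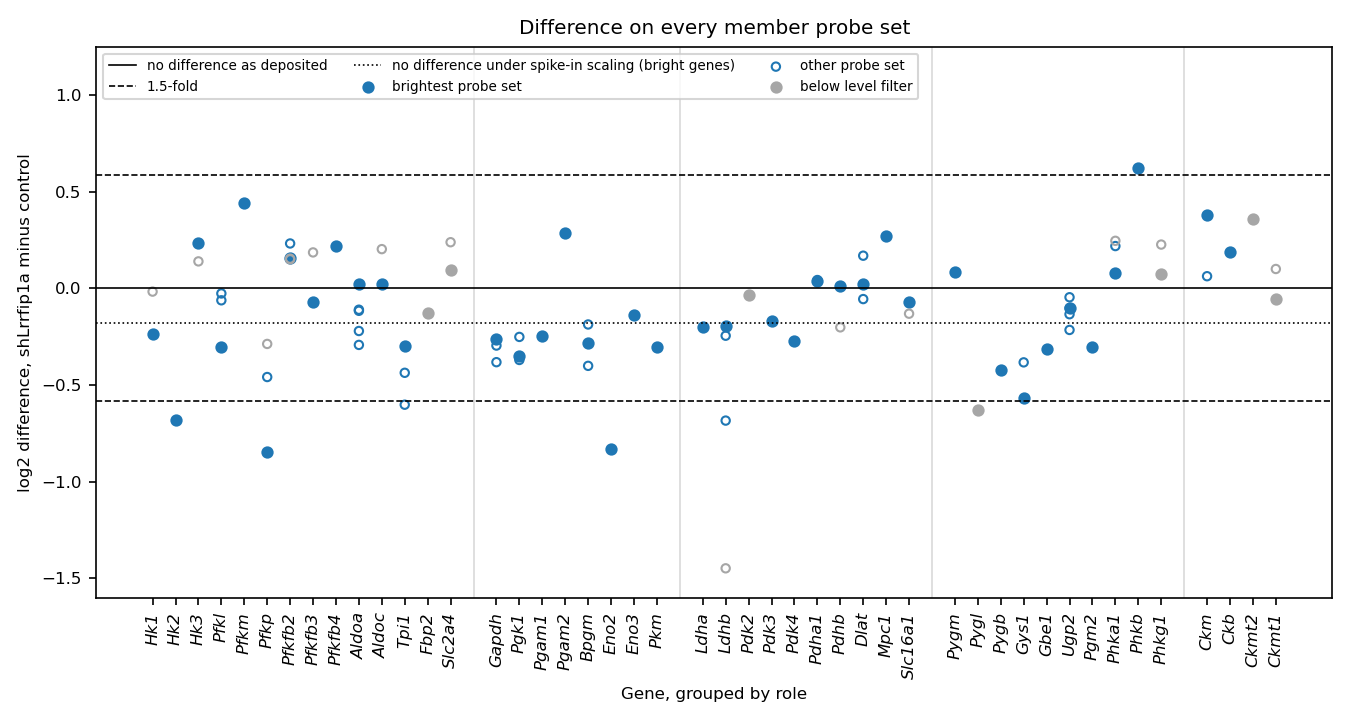
Log2 difference, shLrrfip1a minus control, on each of the 88 member probe sets (filled, brightest probe set; open, others; grey, below the level filter), with genes grouped from left to right into upper glycolysis, lower glycolysis, pyruvate and lactate, glycogen, and creatine kinases. In lower glycolysis the 3 Gapdh control sets and all ordinary probe sets apart from Pgam2 lie below 0, and under spike-in scaling, where 0 moves to the dotted line, Eno3 lies above it too. Dashed lines mark 1.5-fold.

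In the lower part of glycolysis most genes were lower. Of 7 measured genes, 6 were lower and Pgam2 was higher (median -0.28), against 49.3% of all genes lower. Under spike-in scaling 5 of 7 were lower (median -0.12), with Eno3 at 0.04, against 23.3% of all genes lower (median 0.17). Pgk1, which makes the first ATP of the pathway, read 3605 against 4604 (-0.35) and differed by -0.37 and -0.25 on its other 2 probe sets. Pgam1, the phosphoglycerate mutase of most tissues, read 3457 against 4099 (-0.24), while the muscle form Pgam2 read 113 against 89.8 (0.29). Pgam1 and Pgam2 thus lay on opposite sides, each on 1 probe set. Bpgm, which makes 2,3-bisphosphoglycerate, was lower on all 3 probe sets, by -0.40 to -0.19 (158 against 196 on the brightest).

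Among the enolases, the neuronal form Eno2 read 68.2 against 134 (-0.83), so that 1.21% of all genes had a lower difference, and the muscle form Eno3 read 1811 against 1993 (-0.14). Eno2 was dim in shLrrfip1a, and its size depends on the pseudocount, from -0.96 with 1 to -0.58 with 64. Pkm, the pyruvate kinase of muscle and proliferating cells, read 1640 against 2031 (-0.31). Its probe set gives 1 value for the gene, so the M1 and M2 splice forms were not told apart. Gapdh, which makes the first NADH of the pathway, was lower on its 3 control probe sets, at 4129 against 4949 (-0.26), 4029 against 4949 (-0.30) and 3494 against 4557 (-0.38). It was also lower on 3 probe sets whose annotation lists it beside pseudogenes, by -0.57 to -0.26. A further probe set shared by Hk1 and ribosomal protein genes differed by -0.23.

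At the branch from pyruvate the differences were small, and no gene reached 1.5-fold. Of 9 measured genes 5 were lower and 4 higher (median -0.07, or 0.11 under spike-in scaling against 0.17 of all genes). Ldha, the muscle-type lactate dehydrogenase subunit, read 3917 against 4495 (-0.20). Ldhb, the heart-type subunit, read 144 against 167 (-0.19) on its brightest probe set, and 129 against 156 (-0.24) and 70.8 against 124 (-0.68) on the next 2. The dimmest Ldhb probe set, below the filter, read 15.6 against 70.2 (-1.45). All 4 Ldhb probe sets were lower, but by sizes far apart. The pyruvate dehydrogenase kinases switch the complex off. Pdk4, the form induced by fasting, read 110 against 137 (-0.27), Pdk3 read 152 against 172 (-0.17, or 0.00 to 2 decimals under spike-in scaling), and Pdk2 was below the filter (difference -0.03).

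The subunits of the complex itself differed by 0.01 to 0.04 as deposited and by 0.19 to 0.22 under spike-in scaling. Pdha1 read 1487 against 1449 (0.04 on both probe sets), Pdhb 965 against 955 (0.01) and Dlat 340 against 334 (0.03, with -0.05 and 0.17 on its other probe sets). Mpc1, a subunit of the mitochondrial pyruvate carrier, read 784 against 647 (0.27). The monocarboxylate transporter gene Slc16a1, which moves lactate and pyruvate across the cell membrane, read 650 against 683 (-0.07, or 0.11 under spike-in scaling). Mpc1 was the 1 gene of this group above 0.1 as deposited.

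Of 8 measured glycogen genes, 5 were lower and 3 higher (median -0.20). Under spike-in scaling 4 were lower and 4 higher (median -0.03), against 23.3% of all genes lower (median 0.17). Phkb, the regulatory beta subunit of phosphorylase kinase, which switches glycogen phosphorylase on, read 859 against 552 (0.62). It was the highest member, and 97.9% of all genes had a lower difference. The value rests on 1 probe set. The muscle alpha subunit Phka1 read 140 against 131 (0.08, and 0.22 on the next probe set), and the muscle catalytic subunit Phkg1 was dim (26.5 against 24.3). Only the beta subunit therefore stood past 1.5-fold among the 3 subunit genes, and a difference between subunits has no test here.

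Gys1, the glycogen synthase of muscle, read 160 against 244 (-0.57), with 2.68% of all genes lower, and 46.8 against 65.8 (-0.38) on its other probe set. The branching enzyme gene Gbe1 read 93.1 against 120 (-0.31), and Ugp2, which makes the UDP-glucose used by glycogen synthase, read 582 against 625 (-0.10, or 0.07 under spike-in scaling). Pgm2, a phosphoglucomutase gene, read 208 against 261 (-0.30). The phosphorylases release glucose 1-phosphate from glycogen. The muscle form Pygm lay just above the filter at 60.3 against 56.0 (0.08), the brain form Pygb read 114 against 159 (-0.42), and the liver form Pygl was near the bottom of the scale (4.06 against 15.0).

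Both measured creatine kinase genes were higher, as were 50.7% of all genes. Under spike-in scaling neither was lower, against 23.3% of all genes lower. Ckm, the muscle form, read 422 against 321 (0.38) and 60.6 against 57.3 (0.06) on a dimmer probe set. Ckb, the brain form that is also present in myoblasts, read 476 against 415 (0.19). The mitochondrial forms were below the filter, with the sarcomeric Ckmt2 at 25.3 against 16.2 and the ubiquitous Ckmt1 at 15.8 against 17.0.

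The muscle forms were then set beside the other forms as classes. Gys1, Phka1, Phkg1, Fbp2 and Slc2a4 of the muscle class have no partner in the other class, so the class medians do not compare like with like. The muscle class held Hk2, Pfkm, Pgam2, Eno3, Pygm, Gys1, Phka1, Phkg1, Fbp2, Ckm, Ckmt2 and Slc2a4, of which 8 passed the filter. Of these 8, 5 were higher and 3 (Hk2, Gys1 and Eno3) lower, with a median of 0.08 and a mean of -0.01, so median and mean differ in sign. Of all genes, 50.7% were higher and 49.3% lower. Of 8 measured other forms (Hk1, Hk3, Pfkl, Pfkp, Pgam1, Eno2, Pygb and Ckb), 6 were lower and Hk3 and Ckb were higher, with a median of -0.27. Under spike-in scaling the medians were 0.24 and -0.10, on either side of the all-gene median of 0.17. Lower under that scaling were 25% of the measured muscle forms and 75% of the measured other forms, against 23.3% of all genes. With the level filter at the 75th percentile 5 muscle forms were left, and their median turned to -0.14.

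A factor that scales a whole array nearly cancels between 2 genes of the same arrays, so the forms of a step were also compared with each other. Among 8 pairs of a muscle form and another form, both above the filter, the muscle form had the higher difference in 6, and in 5 of 6 enzyme steps. Pfkm exceeded Pfkp by 1.29 and Pfkl by 0.74, Eno3 exceeded Eno2 by 0.70, Pgam2 exceeded Pgam1 by 0.53, Pygm exceeded Pygb by 0.51, and Ckm exceeded Ckb by 0.19. The enolase step rests on Eno2 alone, because Eno1 was not measured. Its gap was 0.83 with a pseudocount of 1 and 0.45 with 64, and Eno3 was itself lower. The creatine kinase pair depends on the probe set: the dimmer Ckm set (0.06) lies below Ckb (0.19), and with the mean over probe sets, an alternative chosen after seeing the data, Ckm exceeded Ckb by 0.033. The hexokinases went the other way, with Hk2 minus Hk1 at -0.44 and Hk2 minus Hk3 at -0.92. With the mean over probe sets Pfkm exceeded Pfkp by 1.09 and Pfkl by 0.57, and the count stayed at 6 of 8. The pairs share Pfkm and Hk2 and are not independent. The SD of differences between probe sets of the same gene, pooled over 4848 genes, was 0.17. It reads the same RNA again and says nothing about the spread between cultures. With the 2 other muscle-linked forms added, Aldoa stood level with Aldoc (difference 0.00) and Ldha with Ldhb (difference 0.00) on the brightest probe sets, and at -0.16 and 0.18 with the mean over probe sets.

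**Figure D3:**
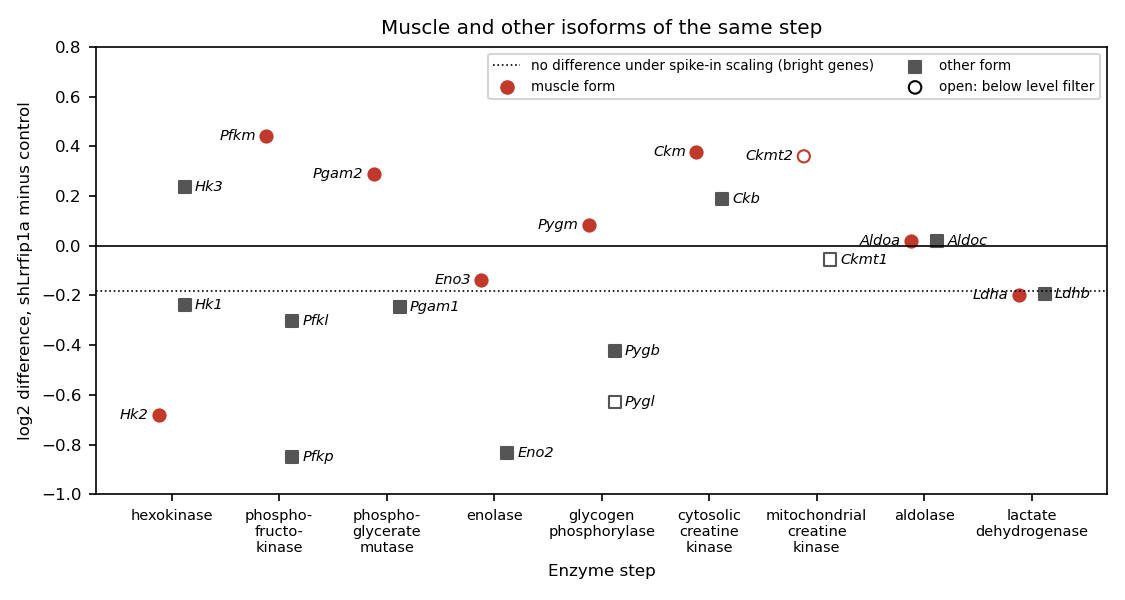
Log2 difference, shLrrfip1a minus control, for the muscle form (red circles) and the other forms (grey squares) of each enzyme, with genes below the level filter open and aldolase and lactate dehydrogenase, whose common forms are not muscle-restricted, at the right. The muscle form lies above the other measured forms for phosphofructokinase, phosphoglycerate mutase, enolase, phosphorylase and cytosolic creatine kinase (the last by 0.19 here and by 0.033 with the mean over probe sets), and below them for hexokinase.

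**Figure D4:**
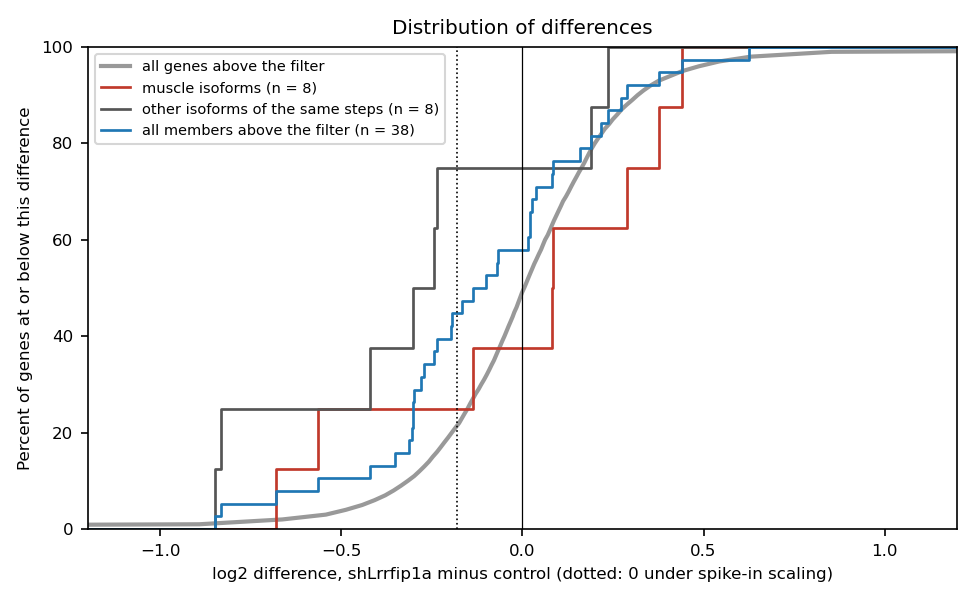
Cumulative percent of genes at or below each log2 difference for all 11438 genes above the filter, the 38 members, the 8 muscle isoforms and the 8 other isoforms. The other isoforms reach 75% at 0 and the muscle isoforms 37.5%, against 49.3% of all genes; under spike-in scaling 0 moves to the dotted line.

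Probe sets of 1 gene gave the check that the design allows. Of 14 members with several probe sets above the filter, 12 differed in 1 direction on all of them (85.7%, against 60.3% of 4848 such genes). Aldoa and Dlat were the 2 with probe sets on both sides of 0 as deposited. The count was not repeated under spike-in scaling, and Pfkl (-0.30 to -0.03) and Ugp2 (-0.21 to -0.05) span its shift of 0.18. Tpi1, Pgk1, Ldhb, Bpgm, Ugp2 and Gys1 were also read in part on probe sets that can bind other transcripts. Among the members past 1.5-fold, Hk2, Eno2 and Phkb had 1 probe set each above the filter, so this check does not reach them. Nor does it reach Pfkm, Pgam1, Pgam2, Eno3, Pygm, Pygb, Hk1, Hk3 and Ckb of the isoform comparison, for the same reason.

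Of 41 other genes listed with these pathways, 38 had a probe set and 27 passed the filter. Of the 27, 19 were lower and 8 higher, with a median of -0.18, against 49.3% of all genes lower (median 0.00). Under spike-in scaling 14 of the 27 were lower, with a median of -0.0088, against 23.3% of all genes (median 0.17). Under the 1.5-fold rule 0 were higher and 1 was lower (against 4.9% of all genes in either direction). That gene was Pdk1, a further pyruvate dehydrogenase kinase, at 308 against 497 (-0.67), with -0.65 and -0.61 on its next 2 probe sets. Of the sugar and lactate transport genes all 3 measured were lower, also under spike-in scaling, namely the glucose transporter Slc2a1 (737 against 852, -0.21), the lactate exporter Slc16a3 (144 against 188, -0.35) and Bsg, the partner protein of lactate transporters (1192 against 1603, -0.42). Slc2a3 read 17.8 against 49.7 below the filter, and its 4 probe sets differed in direction. Of 10 further genes listed under glycogen 9 were lower, by at most -0.55 (Pgm5, 147 against 223), and 8 under spike-in scaling. The 2 lowest of them, Pgm5 and Pgm3 (-0.33), were listed as relatives of phosphoglucomutase, so the list is not limited to genes of glycogen turnover. Of 3 creatine genes, the synthesis enzymes Gatm (0.27) and Gamt (0.37) were higher and the transporter Slc6a8 was at -0.11. The lists were chosen with results of these data in view, so these counts are not independent of the pattern in the members.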

How the data were processed

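RNA of 1 shLrrfip1a and 1 control culture was read on Affymetrix mouse arrays from 6 ug of total RNA, per the labels' protocols. The authors deposited linear intensities, 1 for each probe set in each array, with a floor of 1 (medians 53.5 and 51.4). How probes were summarised, corrected for background and scaled is not stated in those sources, so a probe set cannot be called absent, and the number of arrays limits the precision. Of 45101 probe sets, 34958 had 1 gene symbol in the platform annotation, 932 several and 9211 none. All 46 member genes matched the GRCm38.p6 gene table by identifier.

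Differences of log2(intensity + 16) were computed on the authors' scaling with Python 3.11.15, numpy 2.4.6 and pandas 2.3.3, over all 18193 genes, and these steps were tested on simulated arrays. With 1 array per group no test was made, and 1.5-fold is a size. Alternatives were median centring, quantile and spike-in scaling (median log2 ratio of 45 control probe sets), pseudocounts of 1 and 64, no filter or the 75th percentile, the mean over probe sets, other thresholds and broader isoform classes. All 50 members were named by rule, and other pathway genes from 1.5-fold; the transport, creatine and Pgm5 values below that size were chosen after they were seen. The members and lists were chosen with earlier results of these data known. Promoter windows and their motifs come from RefSeq sequences of GRCm38.p6, and the motifs and the 8 genes shown were chosen after the differences were seen.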

Additional observations from a re-analysis of the deposited data

How the results depend on the processing

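No array could be left out, and the variation between cultures is unknown. No paired analysis was possible because there was a single array in each group. The 4 of 38 members past 1.5-fold (4.9% of all genes) became 2 with a pseudocount of 64 (Pfkp and Hk2; 3.09% of all genes), 9 at a size of 0.32 on the log2 scale (19.4%) and 0 at 2-fold (1.38%). They were 5 with a pseudocount of 1 (6.35%), 4 with spike-in scaling (7.26%) and 3 to 5 under the other alternatives (3.66% to 4.92%). The member median of -0.12 turned to 0.058 with spike-in scaling and lay between -0.15 and -0.07 under the other alternatives. The muscle isoform median of 0.08 turned to -0.14 with the filter at the 75th percentile, which left 5 genes, and the other isoform median stayed below 0 under every alternative run (-0.30 to -0.10). The mean Lrrfip1 difference of -0.55 came to between -0.58 and -0.38. Pfkp differed by -0.65 with the mean over its probe sets and Phkb by 0.80 with spike-in scaling. Signal over background limits what can be said of the 7 dim members: with pseudocounts of 1 and 64, Pygl differed by -1.66 and -0.22, and Ckmt2 by 0.61 and 0.16.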

Other observations

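Genes as bright as the main glycolytic enzymes were examined after the values above had been seen. Of 8 members with a mean intensity above 1000, 6 were lower in shLrrfip1a (75%, median -0.22). Of all 949 genes above that level, 48.1% were lower, with a median of 0.01.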
